A study of Mus musculus with 2 samples.

Results

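RNA polymerase I transcribes the genes for the large ribosomal RNA precursor in the nucleolus, and its output sets how many ribosomes a cell can build. The upstream binding factor UBTF opens the ribosomal DNA, the selectivity factor SL1 (TBP with the TAF1 subunits) marks the promoter, RRN3 joins the polymerase to SL1, and TTF1 binds the terminator elements. H3K9me3 is a histone mark of silenced chromatin, H3K4me3 marks active start sites, and the KDM4 demethylases remove methyl groups from H3K9.

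The genes described here are 7 protein-coding genes of this machinery: the SL1 subunits Taf1a and Taf1b, the polymerase subunits Znrd1 and Polr1e, and the factors Rrn3, Ubtf and Ttf1. They were found by gene name in a table of H3K4me3 regions with H3K9me3 values, where they hold 8 of 1381 regions, 2 of them at Znrd1 and 1 at each other gene. The values come from chromatin immunoprecipitation and sequencing (ChIP-seq) of LSK cells, the bone marrow fraction enriched for blood stem and progenitor cells, with an anti-H3K9me3 antibody. There was 1 library of C57BL6 control mice, labelled wild type, and 1 of mice of the same strain with a combined conditional knockout of Kdm4a, Kdm4b and Kdm4c. Mice of both kinds were given tamoxifen, and LSK cells were sorted 2 weeks later. The labels do not name the Cre driver or the number of animals behind a library. The table gives no value for the Kdm4 genes and no expression, so neither the deletion nor the cell type could be checked from it. The scaling of the values implies 24673463 control and 26061344 knockout reads.

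The table is a selection. Its lowest knockout to control ratio was 2.01 and every region held at least 1 control read, so a higher knockout value at each of the 8 regions is fixed by how the table was made and is not a finding. A single library per genotype gives no measure of the spread between animals, and no test between genotypes was made. Each ratio is given with an exact 95% binomial counting interval, which compares these 2 libraries and covers counting error only.

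Of the 7 genes, a region covered the listed start site only at Polr1e. At Taf1a, Taf1b and Ttf1 it lay downstream, at Rrn3 and Ubtf upstream, and at Znrd1 there was a region on each side. The start was spanned by 1 of these 8 regions (12.5%), and by 23.5% of all regions. The promoter windows of 5 genes are shown because they show which start site bases lie under a region. Each runs 5′ to 3′ from 250 bases before the listed start to 50 bases from it on (RefSeq, GRCm38.p6), and capitals mark bases inside the listed H3K4me3 region.
Taf1a, chr1:183388635-183388934, plus strand: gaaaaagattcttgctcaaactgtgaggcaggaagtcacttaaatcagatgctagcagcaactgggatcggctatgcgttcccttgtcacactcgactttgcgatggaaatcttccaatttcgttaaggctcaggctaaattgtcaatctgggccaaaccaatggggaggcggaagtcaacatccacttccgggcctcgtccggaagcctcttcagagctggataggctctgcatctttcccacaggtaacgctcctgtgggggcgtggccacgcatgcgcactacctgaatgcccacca
Taf1b, chr12:24498331-24498630, plus strand: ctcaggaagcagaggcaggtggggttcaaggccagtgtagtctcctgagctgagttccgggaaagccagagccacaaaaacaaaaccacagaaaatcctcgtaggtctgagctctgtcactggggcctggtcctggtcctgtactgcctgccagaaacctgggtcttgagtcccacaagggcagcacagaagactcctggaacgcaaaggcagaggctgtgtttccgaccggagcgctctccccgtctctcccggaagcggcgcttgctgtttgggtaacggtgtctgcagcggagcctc
Znrd1, chr17:36958476-36958775, minus strand: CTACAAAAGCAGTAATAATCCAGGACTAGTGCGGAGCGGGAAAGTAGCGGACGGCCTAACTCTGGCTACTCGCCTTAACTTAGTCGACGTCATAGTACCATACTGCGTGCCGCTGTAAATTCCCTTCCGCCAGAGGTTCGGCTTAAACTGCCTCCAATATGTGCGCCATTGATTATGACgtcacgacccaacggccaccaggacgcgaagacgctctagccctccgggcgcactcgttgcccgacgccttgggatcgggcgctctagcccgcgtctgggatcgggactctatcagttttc
Rrn3, chr16:13780449-13780748, plus strand: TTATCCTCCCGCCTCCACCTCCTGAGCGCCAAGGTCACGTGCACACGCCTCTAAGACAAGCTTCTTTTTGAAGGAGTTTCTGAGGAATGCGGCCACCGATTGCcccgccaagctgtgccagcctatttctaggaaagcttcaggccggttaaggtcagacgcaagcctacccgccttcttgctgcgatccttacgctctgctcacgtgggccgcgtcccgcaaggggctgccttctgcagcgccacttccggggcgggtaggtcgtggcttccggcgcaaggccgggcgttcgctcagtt
Polr1e, chr4:45018359-45018658, plus strand: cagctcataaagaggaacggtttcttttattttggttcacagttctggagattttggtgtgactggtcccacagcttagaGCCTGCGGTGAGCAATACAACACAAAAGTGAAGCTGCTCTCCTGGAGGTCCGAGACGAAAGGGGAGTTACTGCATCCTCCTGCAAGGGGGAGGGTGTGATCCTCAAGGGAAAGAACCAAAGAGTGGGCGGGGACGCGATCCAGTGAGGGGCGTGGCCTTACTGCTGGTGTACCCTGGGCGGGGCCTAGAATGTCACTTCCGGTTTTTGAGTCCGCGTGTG
No base of the Taf1a and Taf1b windows was inside a region, 179 bases of the Znrd1 window and 103 of the Rrn3 window were, all of them upstream of the start, and at Polr1e 220 bases were, the start included.

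**Figure D1:**
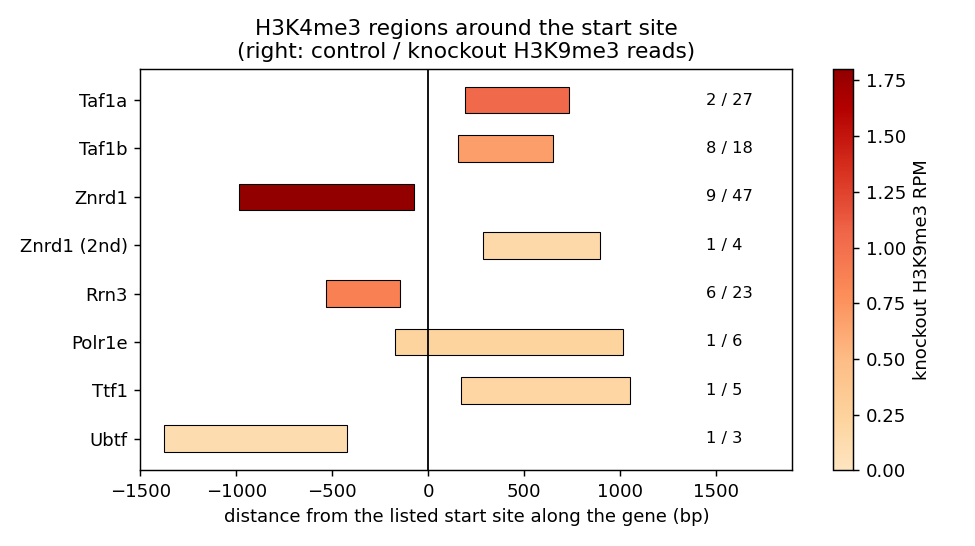
Position of the 8 H3K4me3 regions along each gene, in bp from the listed start site (negative is upstream), coloured by knockout H3K9me3 in RPM; control and knockout reads stand at the right. Only the Polr1e region covers the start site, and the darkest bar, with 47 knockout reads, is the Znrd1 region upstream of the start.

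The SL1 subunits Taf1a and Taf1b held nearly the same number of reads in both libraries together, split very differently. At Taf1a (mm10 chr1:183389079-183389618, 194 to 733 bp downstream of the start, within the gene), the control library had 2 reads (0.081 RPM) and the knockout library 27 (1.04 RPM). The knockout value was 12.8 times the control value (counting interval 3.21 to 111), the 17th highest ratio of the table. At Taf1b (chr12:24498735-24499231, 154 to 650 bp downstream, within the gene), the control library had 8 reads (0.324 RPM) and the knockout library 18 (0.691 RPM). This ratio was 2.13 (0.88 to 5.66), with equal levels inside the interval, and it ranked 1326th. Per kb of region, the knockout level was 1.92 RPM at Taf1a and 1.39 RPM at Taf1b, and the control level was 0.150 RPM at Taf1a and 0.652 RPM at Taf1b, so the order of the pair was opposite in the 2 libraries. These levels are per kb of the listed region, since the window in which reads were counted is not given. Exact Poisson intervals of the reads overlap between the genes, at 17.8 to 39.3 for Taf1a and 10.7 to 28.4 for Taf1b in the knockout and at 0.24 to 7.22 and 3.45 to 15.8 in the control. The intervals of both ratios overlap from 3.21 to 5.66, and the difference between these genes was not tested.

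The same order held for where each split lay among those the table could contain. For a region with a given number of reads, the table could list only splits that left 1 or more reads in the control and put the ratio over 2. The 29 reads of Taf1a allowed 9 splits, with 1 to 9 control reads, and its 2 control reads gave the second highest of these ratios. The 26 reads of Taf1b allowed 8 splits, and its 8 control reads gave the lowest. In all, 4 of the 8 regions were at the lowest ratio their reads allowed, Taf1b among them, as were 65.4% of all regions.

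Znrd1 encodes a small zinc ribbon subunit of the polymerase that takes part in RNA cleavage and termination, and its upstream region had the most reads of the 8. There (chr17:36958597-36959510, 72 to 985 bp upstream of the start), 9 control reads (0.365 RPM) stood against 47 knockout reads (1.80 RPM), a ratio of 4.94 (2.40 to 11.5). Only 6 regions of the table had more knockout reads. The 56 reads allowed 17 splits, and the lowest ratio they allowed was 2.17. In the second region (chr17:36957631-36958238, 287 to 894 bp downstream, within the gene), the libraries had 1 control (0.0405 RPM) and 4 knockout reads (0.153 RPM), a ratio of 3.79 (0.37 to 186). The regions are 359 bp apart. Per kb of region, the upstream region had 1.97 RPM in the knockout and 0.399 RPM in the control, and the downstream region 0.252 and 0.0667 RPM, so the upstream region had the higher value in each library. The exact Poisson intervals of the knockout reads, 34.5 to 62.5 and 1.09 to 10.2, do not overlap, and those of the control reads, 4.12 to 17.1 and 0.03 to 5.57, do.

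The upstream Znrd1 region also belongs to a neighbouring gene. All of its 914 bp lay inside Znrd1as, the antisense neighbour of Znrd1, annotated at chr17:36958555-36965830. An annotated start of Znrd1as at 36958600 lies 75 bp from that of Znrd1, on the opposite strand, and inside this region. The H3K9me3 value there can thus be listed for either gene. Among the other genes described here, none had a start of another gene within 1 kb in the table of promoter windows, which holds no window for the pseudogene Gm6354 next to Rrn3. No gene other than Znrd1 itself had a listed region within 100 kb of any of the 8.

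Polr1e, which encodes the subunit PAF53 that contacts UBTF, had 7 H3K9me3 reads in both libraries together, in the widest of the 8 regions. At chr4:45018439-45019626, from 170 bp upstream to 1017 bp downstream of the start, 1 control read (0.0405 RPM) stood against 6 knockout reads (0.230 RPM). The ratio of 5.68 was the second highest of the 8, but its interval ran from 0.69 to 261. Its 7 reads allowed only 2 splits. Its knockout value equalled the table's median of 0.230 RPM. Per kb of region its knockout level was 0.194 RPM, below the table's median of 0.355 RPM, though knockout reads did not follow region width over the table.

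Rrn3, the initiation factor whose activity is regulated by growth signals, had the highest knockout level per kb among the 8 regions, and the narrowest region. At chr16:13780165-13780551 (148 to 534 bp upstream of the start), the control library had 6 reads (0.243 RPM) and the knockout library 23 (0.883 RPM), a ratio of 3.63 (1.44 to 10.9). Over its 387 bp the knockout level was 2.28 RPM per kb, the 28th highest of the table, and the control level 0.628 RPM per kb. Without division by width, its knockout value ranked 73rd, below those of the upstream Znrd1 region and Taf1a. The level per kb thus depends on the region's width, which knockout reads did not follow over the table. Rrn3 had the same 29 reads as Taf1a, with 4 more of them in the control library, and the lowest ratio these reads allowed was 2.10. The region overlaps the annotated pseudogene Gm6354 (chr16:13779777-13780186) over 22 bp.

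Ttf1 and Ubtf had 1 control read each. At Ttf1 (chr2:29060437-29061314, 174 to 1051 bp downstream of the listed start, within the gene), the control library had 1 read (0.0405 RPM) and the knockout library 5 (0.192 RPM), a ratio of 4.73 (0.53 to 224). At Ubtf (chr11:102319522-102320471, 426 to 1375 bp upstream of the listed start), they had 1 (0.0405 RPM) and 3 (0.115 RPM), a ratio of 2.84 (0.23 to 149). No region of the table had fewer reads than Ubtf. The gene has several annotated starts. RefSeq places it at chr11:102304560-102323649, so all 950 bp of the region were inside it, and they cover a Ubtf start at 102319592 other than the listed start at 102319096.

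For 3 of the 8 regions (Ttf1, Ubtf and the second Znrd1 region) the reads allowed a single split, so their ratios follow from their read totals alone. This was so for 35.0% of the table. The pair of 1 and 3 reads seen at Ubtf was shared by 248 other regions, 1 and 4 by 150, 1 and 5 by 83 and 1 and 6 by 49. No other region shared the read pairs of Taf1a, the upstream Znrd1 region or Rrn3.

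**Figure D2:**
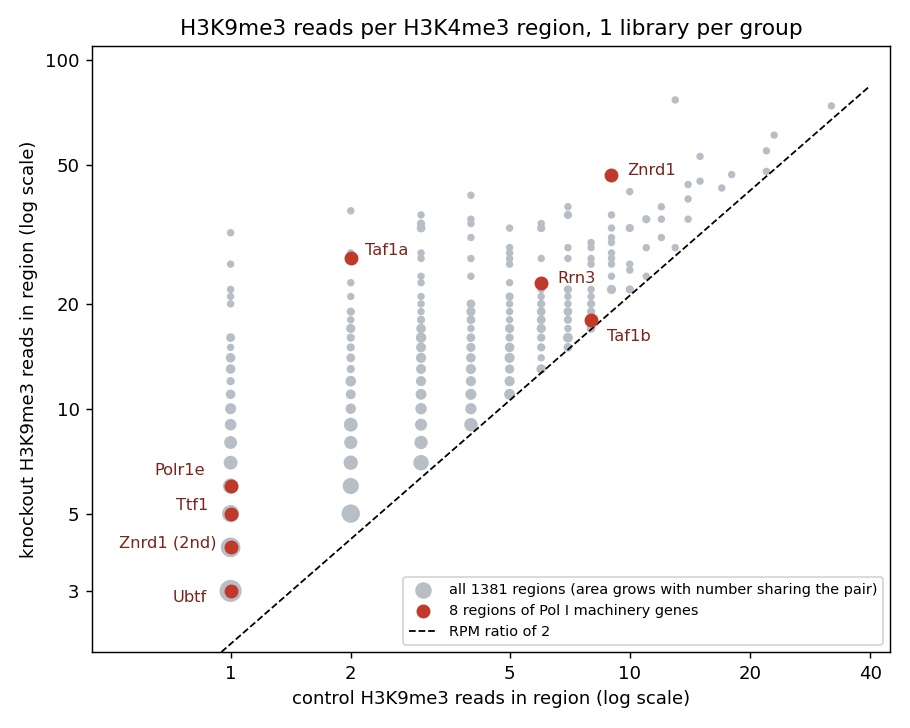
Control (x) and knockout (y) H3K9me3 reads on log axes for all 1381 regions (grey, larger where more regions share a pair) and the 8 regions of RNA polymerase I machinery genes (red); the dashed line is an RPM ratio of 2. Taf1b sits at the line, Taf1a at 2 and 27 reads far above it, and 4 of the 8 regions are among those with 1 control read.

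The counting interval lay above 1 at 3 of the 8 regions (37.5%), those of Taf1a and Rrn3 and the upstream one of Znrd1, against 21.1% of all regions. Among regions with at least 10 reads in both libraries together, it was so for 3 of 4, against 46.5% of 578. The interval lay above 2 at Taf1a and the upstream Znrd1 region, which is 2 of 8 against 3.48% of all regions. A ratio of at least 3 was found at 6 of 8 regions, against 50% of the table, and with only 4 regions over 10 reads these shares are no result about the genes as a group. The binomial distribution was also limited to the allowed splits, which takes the selection on the ratio into account. The interval then lay above 1 at 2 of 8 regions, against 6.01% of all regions. A region with a single allowed split, as for 35.0% of the table, cannot have such an interval. The share among regions with at least 10 reads was not computed, so these shares too are no result about the group. The limited interval was 3.15 to 525 at Taf1a and 2.25 to 11.5 at the upstream Znrd1 region. At Rrn3 it became 0.82 to 11.2, with equal levels inside it, and at Taf1b it had an upper limit of 5.20 and no lower limit above 0.

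**Figure D3:**
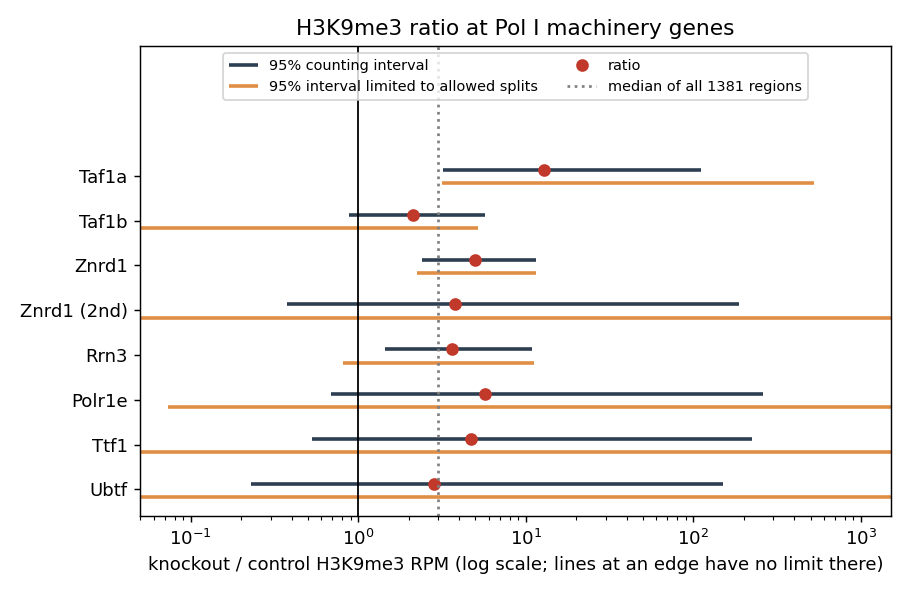
Knockout to control ratio of H3K9me3 RPM (log axis) at the 8 regions, with the 95% counting interval (dark) and the 95% interval limited to the splits the table could hold (orange); a line that reaches an edge of the plot has no limit there. Both intervals lie above 1 at Taf1a and at the upstream Znrd1 region, and at Rrn3 only the counting interval does.

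The median ratio over the 8 regions was 4.26 (quartiles 3.43 and 5.13), and over all 1381 regions it was 2.998 (2.84 and 4.42). The sets also differed in how many reads a region held. The 8 regions had a median of 16.5 reads in both libraries together (quartiles 5.75 and 29), against 8 (5 and 13) over the table, and whether this bears on the medians was not tested. Among regions with at least 10 reads the median was 4.29 for the 4 of these genes (Taf1a, Taf1b, the upstream Znrd1 region and Rrn3) and 3.16 over the table.

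Among the 8 regions, those with the most H3K4me3 were not those with the most H3K9me3 reads. H3K4me3 height, in RPKM (reads normalized to region length and library depth), ran from 7.43 at Rrn3 to 19.99 at Ttf1, with a median of 11.3 against 11.02 over the table. Ttf1 and Polr1e (16.95) had the highest H3K4me3 of the 8 and at most 6 knockout H3K9me3 reads each. Rrn3, higher than only 5.43% of the table in H3K4me3, and Taf1a (9.06, higher than 28.2%) had 23 and 27. Taf1b (15.05, higher than 75.9%) and the upstream Znrd1 region (12.6, higher than 61.0%) had 18 and 47 knockout reads. The second Znrd1 region (9.46) and Ubtf (9.99) had heights near that of Taf1a, but only 4 and 3 knockout reads. These 8 heights rest on 10 to 70 H3K4me3 reads each. Across all 1381 regions, which are not independent replicates, Spearman's rho of H3K4me3 height and knockout H3K9me3 was -0.04.

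**Figure D4:**
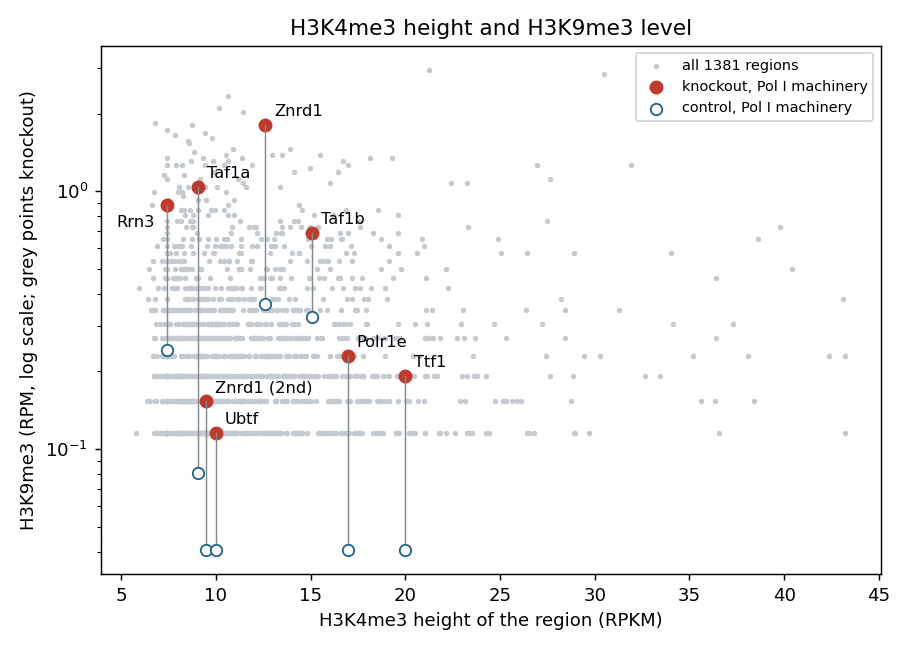
H3K9me3 in RPM (log axis) against H3K4me3 height in RPKM; grey points are the knockout values of all 1381 regions, and lines join control (open) and knockout (red) values of the 8 regions. Rrn3 and Taf1a combine low H3K4me3 with knockout values near 1 RPM, while Ttf1 and Polr1e, furthest right of the 8, lie near 0.2 RPM. The second Znrd1 region and Ubtf, with H3K4me3 near that of Taf1a, lie at 0.153 and 0.115 RPM.

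A short sequence recurs in the promoters of most of the 7 genes. CCGGAAG, the core of sites bound by ETS family factors, was searched on both strands of the 300 base window around each listed start. It was found at 5 of 7 genes, with 2 matches each at Taf1a, Rrn3 and Ttf1 and 1 each at Taf1b and Polr1e. It occurs in 8.86% of all 32817 promoter windows and in 27.0% of 1166 windows of genes with a listed region. These shares, here and for the motifs below, count every annotated start of a gene with a window. The 7 genes are counted at the listed start only, so the measures are unlike. Of their other annotated starts, that of Taf1a had matches too, and those of Znrd1 and Ubtf had none. All 8 matches at the listed starts lie within 64 bases of the start. Only the Polr1e match lay under a listed H3K4me3 region, and the regions of the other 4 genes did not reach theirs. GGGCGG, a GC box, was present at Rrn3, Polr1e and Ubtf (3 of 7, against 35.6% of all windows and 63.8% of those of listed genes). CCAAT was present at Taf1a, Znrd1 and Ttf1 (37.4% and 40.7%). The E-box CACGTG, which MYC can bind, occurred only at Rrn3, with 2 matches, 215 and 48 bases upstream (7.15% and 11.1%), and the first of them lies in the H3K4me3 region. GCATGCG, part of the NRF1 site, was present at Taf1a and Ttf1 (3.57% and 7.55%), each time on both strands in overlapping positions. TATAAA and ATGGCGG were found at none of the 7 (13.6% and 4.05% of all windows). The windows of the 7 listed starts had 50.7 to 61.7% GC and 12 to 28 CpG, with medians of 56.7% and 15. Medians were 60.0% and 21 for listed genes and 52.7% and 7 for all windows, sets that count every annotated start. At the other annotated starts of Taf1a, Znrd1 and Ubtf, GC ran from 46.3 to 82.3% and CpG from 6 to 40. A match is a description of the sequence and not a bound site.

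The 8 remaining genes of a 15 gene list of the machinery had no listed region. They were the SL1 subunits Taf1c and Taf1d and the polymerase subunits Polr1a, Polr1b, Polr1c, Polr1d, Polr1f and Polr1g, so that the catalytic subunits Polr1a and Polr1b were not among the genes with a value. A gene can be missing for lack of an H3K4me3 region near its start, for lack of control reads or because its ratio was too low, and its level is then unknown. By role, regions were listed for 2 of 4 SL1 subunits, 2 of 8 polymerase subunits, and Rrn3, Ubtf and Ttf1. The summed ratios of the nearest regions were 4.26 (2.12 to 9.48) for the SL1 pair and 5.02 (2.53 to 11.1) for the polymerase pair. For all 7 genes it was 4.36 (2.88 to 6.82), and over all regions it was 3.43 (3.31 to 3.57). The selection on the ratio forces such sums above 2 and their intervals take no account of it, so an interval above 1 shows nothing here. Without Taf1a it was 3.71 (2.40 to 5.95), and without Taf1b 5.25 (3.24 to 8.93).

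Some genes that regulate RNA polymerase I or share its subunits were listed too. Of 18 regulators, 3 had a region, and 1 of these had a counting interval above 1. Nop53, a nucleolar protein gene, had 1 control and 9 knockout reads upstream of its start, a ratio of 8.52 (1.18 to 373), and 1 and 3 in a second region. Heatr1, needed for ribosomal RNA synthesis, had 1 and 4 reads over its start, a ratio of 3.79 (0.37 to 186), and 2 and 5 in a second region. At Ercc6, a chromatin remodeller of transcription-coupled repair, 5 knockout reads and 2 control reads gave a ratio of 2.37 (0.39 to 24.9). Of 6 subunits common to the polymerases (TBP counted with them), 2 had a region. At Polr2k, 13 knockout reads and 3 control reads gave a ratio of 4.10 (1.13 to 22.4), and at Polr2h 4 and 1 gave 3.79 (0.37 to 186).

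Polymerases II and III gave a comparison with the same kind of gene. Of 40 genes for RNA polymerase II subunits and general factors, 5 had a region (12.5%, exact 95% interval 4.19 to 26.8), and of 27 for RNA polymerase III and its factors, 2 had (7.41%, 0.91 to 24.3). For RNA polymerase I it was 7 of 15 (46.7%, 21.3 to 73.4). These shares were not tested against each other, because the genes were chosen with the table's content known and only genes with an H3K4me3 region could be listed. Their intervals take no account of that choice, and no share over all genes was computed. The shares are thus no result about polymerase I genes. The summed ratio was 5.25 (2.74 to 11.1) for polymerase II and 11.4 (2.82 to 99.2) for polymerase III, intervals that overlap that of the polymerase I genes. The 2 genes of the polymerase III list were Snapc1 and Snapc2, with 21 of their 24 knockout reads at Snapc1. On that list, no gene for a polymerase subunit, and none of the Gtf3, Brf and Bdp1 factors, had a region. The list leaves out the shared subunit genes Polr2h and Polr2k, which had regions. Gtf2b, the factor that positions polymerase II, was highest of its list with 3 and 33 reads in its nearest region (10.4, 3.27 to 53.1). A second Gtf2b region had 3 and 9 reads (2.84, 0.71 to 16.3). The subunit gene Polr2g was lowest of the list with 4 and 9 (2.13, 0.59 to 9.47). Snapc1, a subunit of the activator of small nuclear RNA genes, was highest of the other list, with 1 and 21 reads (19.9, 3.20 to 822), and Snapc2 lowest with 1 and 3 (2.84, 0.23 to 149).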

How the data were processed

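The members and gene lists were chosen with earlier results of these data known. Reads were trimmed with Trimmomatic and aligned with Bowtie2 to mm10, per the submitters' processing notes. How regions were called, over which window reads were counted and how duplicates and multimapping reads were treated is not given in the sources used here. Normalized H3K9me3 values were deposited by the authors and read here as RPM. They are whole multiples of 0.0405 RPM (control) and 0.0384 RPM (knockout), all within 0.01 reads, which gave the read numbers used. The deposited ratio column equalled the ratio recomputed here to within 3.9e-15. H3K4me3 read counts and heights in RPKM were deposited by the authors; their scaling implies 3476204 H3K4me3 reads, and they come from libraries not among the samples analysed here. Knockout reads did not follow region width (Spearman's rho -0.04 over 1381 regions), so reads per kb describe the listed region and not a known counting window.

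Region positions were converted to 1-based mm10 coordinates. Counting intervals of ratios are exact binomial (Clopper-Pearson) limits scaled by the library totals. Intervals limited to allowed splits were added after seeing the data. In simulated data, the plain counting interval was tried without selection on the ratio, and the limited interval with it. How the plain interval behaves under that selection was not checked. Both kinds of interval cover counting error only, and they treat reads as independent. Reads without molecular identifiers can be copies of a molecule, and the intervals would then be too narrow. No input library was used. Promoter windows came from a RefSeq table, which held all 7 genes. Analyses used Python 3.11.15, scipy 1.17.1 and pandas 2.3.3. The text names all 7 genes, other listed genes of the RNA polymerase I regulators and shared subunits, the highest and lowest gene for polymerases II and III, neighbours of the 7 genes, and the regions with the most similar read pairs. For genes with several regions, lists use the region centred nearest the start.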

Additional observations from a re-analysis of the deposited data

How the results depend on the processing

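No replicate could be left out. No paired analysis was possible because there is a single library for each genotype. Scaling both libraries to equal sums over the table, which a table of ratios above 2 pushes to 1 by construction, moved the summed ratio of the 7 genes from 4.36 to 1.27 (0.84 to 1.99) and the median of the 8 regions from 4.26 to 1.24, while the median of all regions became 0.87. Taf1b then had a ratio of 0.62, Ubtf 0.83, Rrn3 1.06, the upstream Znrd1 region 1.44 and Taf1a 3.72. For Taf1b, Rrn3 and the upstream Znrd1 region this lay below the counting interval of the ratio as given. Adding the value of 1 control read to both libraries gave a median of 3.06 (2.39 over all regions), and 4 regions at least 3-fold higher in place of 6 (24.7% of all regions in place of 50%). Of the 4 member regions with at least 10 reads, 3 were at least 3-fold higher by the ratio as given. The share over the table was not computed with that filter. The median ratio of the table's 578 regions with at least 10 reads was 3.16. Taf1a fell from 12.8 to 8.85 with that addition and to 4.37 with 5 control reads added. Leaving out each gene in turn gave summed ratios of 3.71 to 5.25, and all regions summed gave 4.34. The 3 regions with a counting interval above 1 stayed 3 with 99% intervals, where the share of all regions was 10.4% in place of 21.1%, and became 2 with intervals limited to allowed splits. Depth limits single values, since 4 of the 8 regions, and 58.1% of all regions, hold fewer than 10 reads.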

Other observations

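The regions of other genes most like the 3 with the most reads were found by distance in log2 control and log2 knockout RPM, over 2 libraries. For Taf1a this was a region of Il3ra, which encodes a chain of an interleukin receptor, with 2 control and 28 knockout reads (ratio 13.3, 3.34 to 115, distance 0.05). For Rrn3 it was a region of Slc35b1, a transporter gene, with 6 and 22 reads (3.47, 1.37 to 10.5, distance 0.06). For the upstream Znrd1 region it was one of the zinc finger gene Zfp445, with 10 and 42 reads (3.98, 1.96 to 8.89, distance 0.22). With 2 libraries such likeness describes read numbers only.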
